A study of Mus musculus with 5 samples.

Results

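The genes of chromatin remodelers and of the enzymes and readers that modify histones and DNA were examined in RNA-Seq libraries of mouse neural stem/progenitor cell (NSPC) cultures. They were taken by symbol: Smarc, Chd, Kdm, Kmt, Hdac, Kat, Dnmt, Tet, Setd, Brpf, Brd, Arid, Sirt and Prmt genes with their numbers, and Ezh1, Ezh2, Eed and Suz12. The rule found 117 of the 12588 gene symbols in the table, and 282 of its 22227 transcripts. One of the 117, Brd3os, is a noncoding RNA that only shares the name of its neighbour. The libraries came from C57BL/6J cultures without any treatment, kept dividing by the growth factors FGF-2 (20 ng/ml) and EGF (also 20 ng/ml). Of the 5 libraries, 2 are labelled WT (p75NTR+/+, littermates of the mutants, replicates 1 and 4) and 3 are labelled p75NTR-/- (replicates 1, 2 and 4). p75NTR, encoded by Ngfr, is a receptor for neurotrophins, and the mutant cultures came from mice deficient for it, not from a deletion driven by Cre. The labels give the cells as E12.5 embryonic, whereas the paper describes NSPCs of the adult subventricular zone. The paper gives the RNA-Seq replicates as separate NSPC preparations, and neither source ties a replicate number to an animal, litter or day. The p-values measure only the spread between these preparations.

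Chromatin remodelers such as the BAF complex, the mammalian form of SWI/SNF, use ATP to slide or eject nucleosomes and so open or close regulatory DNA. Writers place methyl or acetyl groups on histones, erasers take them off and readers bind them. PRC2 places the repressive methyl mark on lysine 27 of histone H3, and DNA methyltransferases and TET enzymes set and oxidize methylation of cytosine. In neural progenitors some of these factors keep genes of neurons and glia silent while cells divide, and subunits of BAF are exchanged when neurons form.

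The targeted gene went against the labels. Ngfr was at 0.98 and 2.08 normalized counts in the libraries labelled WT and at 9.89, 140.6 and 251.4 in those labelled p75NTR-/-. A normalized count is the estimated read count of a library divided by its size factor. The counts cover the whole transcript, so reads from exons outside a deletion would be included. The source of these reads, the low values under the WT label and an exchange of labels were not tested. Directions are therefore given between labels throughout. The recovered depth was 11688211 to 14452396 counts, of which the 117 genes held between 0.912% and 1.06%. Markers of neural progenitors were present, with all 10 of 10 listed genes measured and a sum of 8059 to 9490 TPM, the length-scaled transcript level. The listed markers of microglia and blood (6) and of endothelial and mural cells (5) have no row and are not analysed here, and 1 of 5 fibroblast markers was measured, at 0.2 to 0.6 TPM. For neurons 3 of 7 markers were measured (629 to 979 TPM), and for the oligodendrocyte lineage 3 of 6 (5.6 to 18.2 TPM). Nearly all of the neuron sum was Map2, with a mean of 817 TPM, beside 8.86 TPM for Tubb3 and 5.97 TPM for Snap25.

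None of the 117 gene sums and none of the 282 transcripts passed the criteria for a change between the labels (adjusted p under 0.05, at least 1.5-fold, mean of at least 50 normalized counts). Over all genes limma called 1 of 12588 (0.00794%), and over all transcripts 3 of 22227 (0.0135%). At an unadjusted p under 0.05, 1 of the 117 gene sums passed (0.855%, against 2.08% of all gene sums), namely Hdac8. Among transcripts it was 13 of 282 (4.61%, against 3.14% of all). edgeR called 0 gene sums and 0 transcripts, and DESeq2 called 0 gene sums and 1 transcript, of Brpf1. At an unadjusted p under 0.05, edgeR passed 1 gene sum and 12 transcripts of these genes, beside 2.11% and 2.52% of all tested, and DESeq2 3 and 14, beside 3% and 4.04%. The lowest adjusted p of a gene sum was 0.934 in limma. A p that misses the threshold does not show that levels were equal. The median log2 difference, p75NTR-/- minus WT label on the log2(normalized count + 1) scale, was -0.01 over the 112 genes with a mean of at least 50, beside 0.02 over all genes of that level. Without the library WT 1 it was 0.10. The count at an unadjusted p under 0.05 was 20 without WT 4 and 12 without p75NTR-/- 4, beside 14% and 10.9% of all genes, and 0 without p75NTR-/- 1 or without p75NTR-/- 2. Below a mean of 50 were Dnmt3b, Dnmt3c, Setd4, Prmt8 and Brd3os.

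Levels between genes were compared in TPM, which divides by transcript length, as the mean ± SD over the 5 libraries. The highest gene was Prmt1, the main arginine methyltransferase, at 178 ± 44.7 TPM, followed by Brd2, a reader of acetylated histones, at 154 ± 14.3 TPM, and Sirt2, an NAD-dependent deacetylase of the cytoplasm, at 120.2 ± 31.6 TPM. Hdac2 reached 102 ± 13.2 TPM and the ISWI motor Smarca5 75.2 ± 7.93 TPM. Each of these neighbours in the order differed from the next by less than the sum of their SDs, apart from Hdac2 and Smarca5. At the low end were Chd5, a remodeler known from neurons, at 0.44 ± 0.15 TPM, and Prmt8, a brain arginine methyltransferase, at 0.45 ± 0.46 TPM. Summed over members, the classes ranged from 11.5 TPM for the 3 TET genes to 518.2 TPM for the 13 SWI/SNF and ISWI genes, and the sum over all 117 genes varied between 2765 and 2945 TPM.

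**Figure D1:**
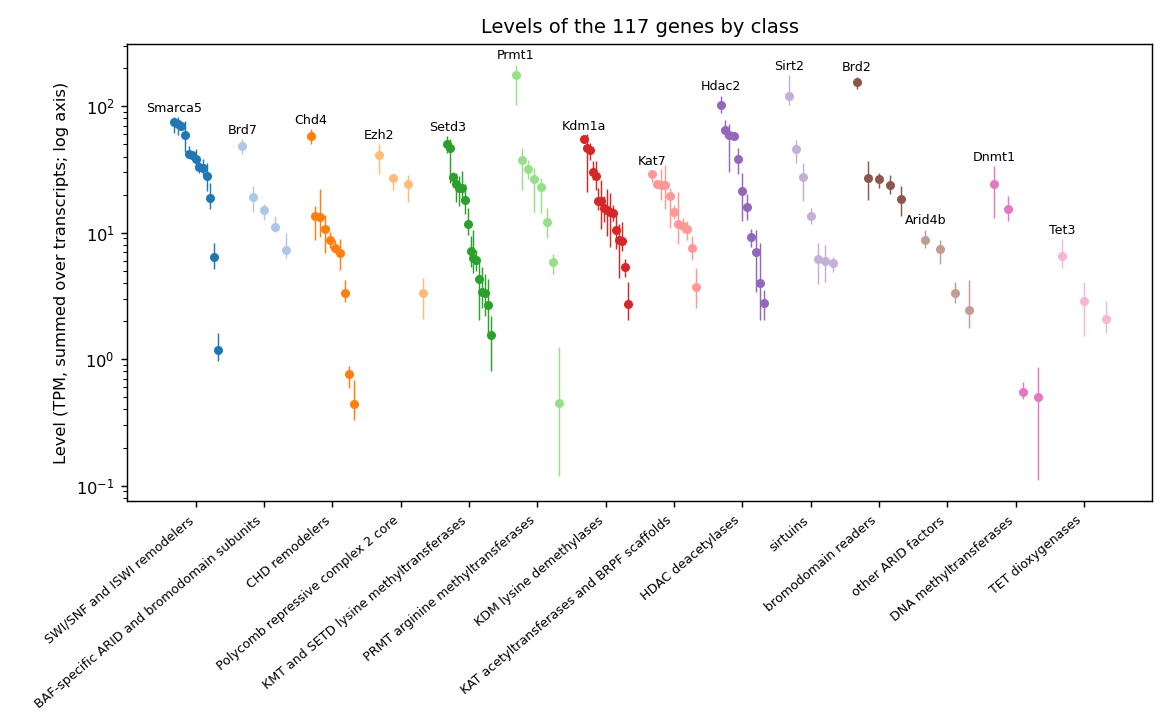
Levels of the 117 genes in TPM (log axis), grouped by class on the horizontal axis and ordered within it. Each point is the mean of the 5 libraries and each bar runs from the lowest to the highest library, and the highest gene of each class is named. Prmt1, Brd2, Sirt2 and Hdac2 lie above 100 TPM, and Chd3, Chd5, Prmt8, Dnmt3b and Dnmt3c lie below 1 TPM.

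Among the remodelers, both motor subunits of BAF were expressed at like levels, Smarca4 (BRG1) at 42.2 ± 3.64 TPM and Smarca2 (BRM) at 41.0 ± 3.21 TPM. Smarca2 was at 1666 and 1587 normalized counts under the WT label and 1104, 1182 and 1569.9 under the p75NTR-/- label. The labels did not overlap for Smarca2, but the lower WT value and that of p75NTR-/- 4 were close. The log2 difference was -0.36 ± 0.22 (SE, limma adjusted p = 0.934). Smarca4 was at 4250.2 and 4093 normalized counts under the WT label and 4505, 4958 and 4289 under the p75NTR-/- label, again without overlap and in the other direction, with a log2 difference of only 0.13 ± 0.16. The core subunits Smarcb1, Smarce1, Smarcc1 and Smarcd1 stood at 70.2 ± 4.44 TPM, 72.7 ± 11.2 TPM, 32.2 ± 4.98 TPM and 38.2 ± 6.04 TPM. Smarcd3, the subunit favoured in muscle and heart, was at 33.2 ± 3.68 TPM. Over the 13 genes 8 were higher and 5 lower under the p75NTR-/- label, with a median of 0.06. Of the BAF subunits with an ARID domain, Arid1a (15.2 ± 1.84 TPM) was above its alternative Arid1b (7.34 ± 1.48 TPM) and above Arid2 (11.2 ± 1.35 TPM), the subunit of the PBAF form. Brd7 and Brd9, which mark PBAF and the noncanonical form, were at 48.9 ± 5.58 TPM and 19.3 ± 4.20 TPM.

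In the CHD family the NuRD motor Chd4 led with 58.0 ± 6.37 TPM, while its paralogues Chd3 and Chd5 were at 0.76 ± 0.13 TPM and 0.44 ± 0.15 TPM. Chd2, a remodeler whose loss causes epilepsy in humans, was at 1533 and 1426 normalized counts under the WT label and 694, 909 and 1414 under the p75NTR-/- label. The libraries p75NTR-/- 1 and 2 were low, and p75NTR-/- 4 lay just under both WT values. Its log2 difference was -0.62 ± 0.33 (SE, limma adjusted p = 0.934), with -1.14 between the libraries numbered 1 and -0.01 between those numbered 4. Chd7, mutated in CHARGE syndrome, was at 2872 and 1171 normalized counts under the WT label and 1368, 1964 and 1251 under the p75NTR-/- label, so that WT 1 was the highest and WT 4 the lowest library. Chd5 was at 44.2 and 42.6 normalized counts under the WT label and 65.3, 86.5 and 45.4 under the p75NTR-/- label, where WT and p75NTR-/- did not overlap, yet p75NTR-/- 4 was close to WT. Of the 10 CHD genes 3 were higher and 7 lower, with a median of -0.01.

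Of the writers, the PRC2 subunits Ezh2, Eed and Suz12 were each lowest in WT 1. Ezh2, the catalytic subunit of dividing cells, was at 1383 and 1919 normalized counts under the WT label and 2136, 2295 and 1852 under the p75NTR-/- label. WT 4 lay between p75NTR-/- 4 and p75NTR-/- 1. Eed and Suz12, the subunits that anchor the complex, were at 476 and 686 against 706, 684 and 717 and 1040.2 and 1335 against 1253, 1359 and 1337 normalized counts (WT label against p75NTR-/- label, in the same order). Ezh1, the paralogue of resting cells, had the other pattern, with 195 and 181 normalized counts under the WT label and 99.0, 102 and 199.7 under the p75NTR-/- label, and p75NTR-/- 1 and 2 were low. The log2 differences were 0.36 ± 0.22 for Ezh2 and -0.57 ± 0.36 for Ezh1. The level of Ezh2 was 41.4 ± 7.71 TPM and that of Ezh1 3.34 ± 1.10 TPM.

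The 16 KMT and SETD genes, lysine methyltransferases, had a median of -0.14, with 6 higher and 10 lower. The large MLL-type enzymes Kmt2a and Kmt2c were highest in WT 1. Kmt2a was at 1246 and 561 normalized counts under the WT label and 641, 768 and 471 under the p75NTR-/- label and Kmt2c, the enzyme of enhancer monomethylation, at 2715 and 1118 normalized counts under the WT label and 1208, 1380.4 and 1118 under the p75NTR-/- label. In both, WT 4 lay within the range of the p75NTR-/- libraries. Kmt5a, which monomethylates lysine 20 of histone H4 in dividing cells, was lowest in WT 1, with 483 and 1067 normalized counts under the WT label and 979.6, 989.9 and 993 under the p75NTR-/- label. Kmt2e, a family member without known methyltransferase activity, was at 2571 and 2049 normalized counts under the WT label and 1474, 1641 and 2053 under the p75NTR-/- label, low in p75NTR-/- 1 and 2. The highest level was that of Setd3, an actin histidine methyltransferase, at 50.7 ± 6.83 TPM.

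Of the 8 PRMT genes 7 were higher under the p75NTR-/- label, beside 6379 of all 12588 gene sums. The class median was 0.33 over the 7 of sufficient level, beside 0.02 over all genes. Prmt1 was at 1902 and 3395 normalized counts under the WT label and 3731, 3950.1 and 3192 under the p75NTR-/- label. Prmt5, which places symmetric dimethylarginine and acts in splicing, was at 945 and 1725 normalized counts under the WT label and 1993, 1804 and 1572 under the p75NTR-/- label. Prmt3, a modifier of ribosomal protein, was at 481 and 821 normalized counts under the WT label and 906, 861 and 770.1 under the p75NTR-/- label. In each of these, WT 1 was low and WT 4 lay among the p75NTR-/- libraries or beside them. Between the libraries numbered 1 the log2 differences of Prmt1, Prmt3 and Prmt5 were 0.97, 0.91 and 1.08, and between those numbered 4 they were -0.09, -0.09 and -0.13. In the fit the log2 difference of Prmt1 was 0.51 ± 0.30 (SE, limma adjusted p = 0.934). WT 1 was the lowest library for 5 of the 8 genes, beside 31.2% of all genes.

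The 11 acetyltransferases and BRPF scaffolds had a median of 0.05, with 6 higher and 5 lower. Kat7 (HBO1), which acetylates histone H3 and H4 at replication origins, led with 29.02 ± 2.29 TPM and varied little, at 1007 and 1219 against 1165, 1215 and 1205 normalized counts. Kat2a (GCN5), the acetyltransferase of the SAGA complex, was at 555 and 1141 normalized counts under the WT label and 1036, 1073 and 1152 under the p75NTR-/- label, with WT 1 the lowest. Kat6a was at 4856 and 2378 normalized counts under the WT label and 3691, 3633 and 2212 under the p75NTR-/- label and its paralogue Kat6b at 1104 and 716 normalized counts under the WT label and 676, 756 and 682 under the p75NTR-/- label. Both were highest in WT 1. None of the 11 genes separated the labels without overlap, beside 7.52% of all genes higher and 7.53% lower without overlap.

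Among the erasers, 13 of the 16 KDM genes were lower under the p75NTR-/- label, beside 6207 of all 12588 gene sums. The class median was -0.28, beside 0.02 over all genes. None of the 16 separated the labels without overlap, beside 7.52% of all genes higher and 7.53% lower without overlap. Kdm3a, which demethylates lysine 9 of histone H3, was at 5720.2 and 5452 normalized counts under the WT label and 1964, 3352 and 5734 under the p75NTR-/- label. Kdm7a, a demethylase of lysines 9 and 27, was at 711 and 761 normalized counts under the WT label and 282, 387 and 718 under the p75NTR-/- label. Kdm5b, a demethylase of lysine 4, was at 2892 and 2043 normalized counts under the WT label and 1169, 1369.5 and 2306 under the p75NTR-/- label. In all of them p75NTR-/- 1 and 2 were low and p75NTR-/- 4 lay with the WT libraries. The log2 differences were -0.74 ± 0.47, -0.78 ± 0.42 and -0.65 ± 0.36 (SE), each with an adjusted p of 0.934 in limma.

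The demethylases of lysine 27 were lowest in the same libraries. Kdm6a (UTX), X-linked, was at 1074 and 823 normalized counts under the WT label and 579.8, 554 and 878 under the p75NTR-/- label, and Kdm6b (JMJD3), known for opening neuronal genes, at 1333 and 1433 normalized counts under the WT label and 654, 973 and 1791 under the p75NTR-/- label. The X-linked Kdm5c was at 3327 and 2944 normalized counts under the WT label and 2292, 2347 and 3102 under the p75NTR-/- label. The Y-linked homologue of Kdm6a, Uty, was at 57.9 and 56.2 normalized counts under the WT label and 100.9, 105 and 48.6 under the p75NTR-/- label, so it was highest where Kdm6a was lowest. It was the only 1 of 4 listed Y-linked genes that was measured. Of the 4 measured genes listed for X inactivation and escape, 3 were lower under the p75NTR-/- label and 1, Ddx3x, was higher. Over the 367 X-linked gene sums with a mean of at least 50 the median log2 difference was 0.0017. Kdm1a (LSD1), the partner of the REST corepressor, had the highest level of the class at 55.2 ± 3.33 TPM and varied little, at 3138 and 3026 against 2734, 2818 and 3246 normalized counts. Between the libraries numbered 1, 7 of the 16 genes were at least 1.5-fold apart, beside 32.9% of all genes. Between those numbered 4 none was, beside 6.40% of all genes.

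Markers of astrocytes differed in the same direction as the KDM genes. All 6 of 6 listed markers were measured and all 6 were lower under the p75NTR-/- label, 1 of them (Aldoc) with an unadjusted p under 0.05. Their summed level was 868.3 to 1402 TPM under the WT label and 633.8 to 911.0 TPM under the p75NTR-/- label. The difference lay between the libraries numbered 1, where the median log2 difference of the markers was -1.51. Between those numbered 4 it was 0.05, with sums of 868.3 TPM in WT 4 and 911.0 TPM in p75NTR-/- 4. The direction was not particular to astrocytes. Of the neural progenitor markers 7 were lower and 3 higher, with a median log2 difference of -0.23. For the oligodendrocyte lineage 2 were lower and 1 higher (median -0.39), and for neurons 2 were lower and 1 higher (median -0.05). Gfap, the defining filament of astrocytes, was at 241 and 680.3 normalized counts under the WT label and 11.9, 1.2 and 746 under the p75NTR-/- label, and thus nearly absent from p75NTR-/- 2. NSPCs of the subventricular zone express several of these genes too. In bulk RNA, fewer cells of a type and less RNA per cell cannot be told apart. The part of these markers in the KDM values was not tested.

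**Figure D2:**
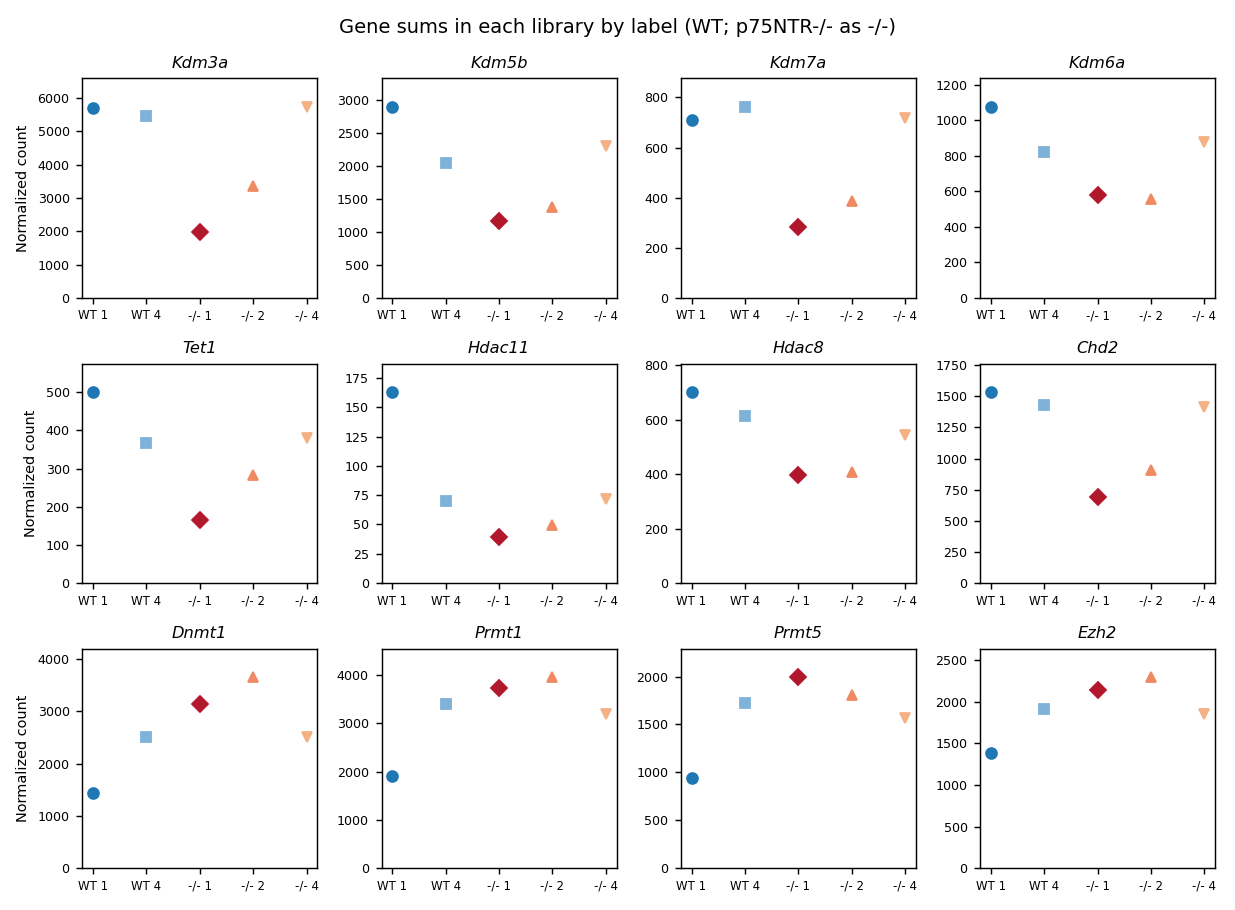
Normalized counts of 12 genes in each of the 5 libraries, with 1 panel per gene, an axis from 0 and each point a single library by its label. For Kdm3a, Kdm5b, Kdm7a, Kdm6a, Hdac8 and Chd2 the libraries p75NTR-/- 1 and 2 are the lowest, and for Dnmt1, Prmt1, Prmt5 and Ezh2 the library WT 1 is the lowest.

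Of the 11 HDAC genes 8 were higher and 3 lower, with a median of 0.10. The class I enzymes Hdac1, Hdac2 and Hdac3, catalytic subunits of the large corepressor complexes, were at 65.2 ± 9.67 TPM, 102 ± 13.2 TPM and 58.5 ± 3.14 TPM. Hdac3 was at 1578 and 1521 normalized counts under the WT label and 1698, 1675 and 1605 under the p75NTR-/- label, without overlap between the labels but with a log2 difference of 0.10 ± 0.15. Hdac8, an X-linked class I enzyme that deacetylates cohesin, was at 702 and 615 normalized counts under the WT label and 396, 408 and 543 under the p75NTR-/- label. All 3 p75NTR-/- libraries lay below both WT libraries, and its log2 difference was -0.56 ± 0.21 (SE). The unadjusted p was 0.0461 and the adjusted p 0.934 in limma, and over the other settings the adjusted p lay between 0.404 and 1.

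Hdac11, the only class IV enzyme, had the lowest log2 difference of the 112 genes, -1.02 ± 0.45 (SE, limma adjusted p = 0.934). Its values were 163 and 69.7 normalized counts under the WT label and 39.6, 49.3 and 71.8 under the p75NTR-/- label. WT 1 alone was high, and WT 4 and p75NTR-/- 4 were nearly equal. The log2 difference was -0.42 without WT 1 and -1.63 without WT 4. The class IIa enzymes Hdac7 and Hdac9 were at 1127 and 622 against 1342, 1315 and 558 and 357 and 166 against 478, 426 and 179.6 normalized counts (WT label against p75NTR-/- label), so that both libraries numbered 4 were low. Hdac5, of the same class, was at 1399 and 2121 against 1546, 1540.1 and 2427, with both libraries numbered 4 high. In these genes the libraries numbered 4 stood apart from the other 3.

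Of the 7 sirtuins 4 were higher and 3 lower, with a median of 0.15. Sirt2 was at 3975 and 2347 normalized counts under the WT label and 2296, 2476 and 2448 under the p75NTR-/- label, high in WT 1 alone. Sirt3, the main mitochondrial deacetylase, was at 424 and 472 normalized counts under the WT label and 301, 252 and 522 under the p75NTR-/- label, low in p75NTR-/- 1 and 2. Sirt5, a mitochondrial desuccinylase, was at 728 and 969.5 normalized counts under the WT label and 1093, 921 and 941 under the p75NTR-/- label, and Sirt6, a nuclear deacetylase of histone H3, at 96.2 and 62.4 normalized counts under the WT label and 91.0, 120.1 and 83.5 under the p75NTR-/- label. Sirt1, a nuclear deacetylase, was at 6.25 ± 1.86 TPM.

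For DNA methylation, Dnmt1, the maintenance methyltransferase of replicating DNA, was at 1431 and 2515 normalized counts under the WT label and 3139, 3652 and 2515 under the p75NTR-/- label. WT 1 was the lowest library, WT 4 and p75NTR-/- 4 were equal to the whole number, and p75NTR-/- 1 and 2 were the highest, so the lack of overlap between the labels rested on less than 1 normalized count. Its log2 difference of 0.69 ± 0.32 (SE, limma adjusted p = 0.934) was the highest among the 112 genes. The de novo enzyme Dnmt3a was at 844 and 603 normalized counts under the WT label and 714, 786 and 678 under the p75NTR-/- label, and its level was 15.3 ± 2.85 TPM against 24.3 ± 7.77 TPM for Dnmt1. Dnmt3b and its rodent paralogue Dnmt3c were low, at 29.4 and 26.0 against 33.6, 25.2 and 27.5 and 43.2 and 5.20 against 24.7, 32.4 and 17.96 normalized counts. Of the 31-base words in the transcripts of Dnmt3c, 31.9% also occur in those of Dnmt3b, so reads may be divided between them and both values are uncertain.

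All 3 TET dioxygenases, which oxidize methylcytosine, were lower under the p75NTR-/- label, with a median of -0.26. Tet1 was at 500.5 and 366 normalized counts under the WT label and 165, 282 and 380.3 under the p75NTR-/- label, with a log2 difference of -0.71 ± 0.40 (SE, limma adjusted p = 0.934). Tet2 and Tet3 were at 400.4 and 241 against 221, 294 and 267 and 920.5 and 588 against 633, 711 and 563 normalized counts. WT 1 was the highest library for each of the 3, beside 28.1% of all genes. In none of them did the labels separate without overlap, beside 7.52% of all genes higher and 7.53% lower. Tet3 had the highest level, 6.57 ± 1.42 TPM.

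Among the bromodomain readers, Brd2 was at 4808 and 5342 normalized counts under the WT label and 5293, 4936 and 5553 under the p75NTR-/- label. Brd3 and Brd8 were at 734 and 630.4 against 722, 833 and 576 and 1298 and 1442 against 1759, 1803 and 1350.1 normalized counts. The log2 differences of Brd2 and Brd3 were 0.05 ± 0.16 and 0.05 ± 0.22, each smaller than its SE. Of the 4 other ARID factors, Arid5b, a partner of the demethylase Phf2, was at 315 and 160.2 normalized counts under the WT label and 141, 142 and 169 under the p75NTR-/- label, with WT 1 high, and Arid4a and Arid4b were at 510.3 and 662 against 689, 631 and 717 and 977 and 725 against 827, 804 and 703.

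The 2 pairs of libraries with a shared replicate number gave different pictures. Between the libraries numbered 1, the absolute log2 difference had a median of 0.39 over the 112 genes, beside 0.35 over all genes of that level. Between the libraries numbered 4 it was 0.08, beside 0.09. At least 1.5-fold apart were 37 of the 117 genes in number 1 (31.6%, against 32.9% of all) and 2 of 117 in number 4 (1.71%, against 6.40% of all). Those 2, Dnmt3c and Prmt8, were both under the mean of 50. Within number 1 the class medians were -0.52 for the KDM, -0.86 for the TET, 0.78 for the PRMT and 0.42 for the PRC2 genes. Within number 4 they were 0.04, 0.05, -0.07 and 0.03. Over the 117 genes, WT 4 and p75NTR-/- 4 differed by 2.68 times the variance that counting alone gives, and WT 1 and p75NTR-/- 1 by 100.9 times, beside 4.32 and 76.98 times over all genes. The 2 libraries of different label were thus closer to each other in number 4 than WT 4 was to WT 1, at 77.7 times, or p75NTR-/- 4 to p75NTR-/- 1, at 57.9 times. p75NTR-/- 1 and 2 differed by 9.23 times the counting variance. Over all genes these 3 pairs differed by 72.4, 60.8 and 11.9 times. With 2 shared numbers this remains a description.

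**Figure D3:**
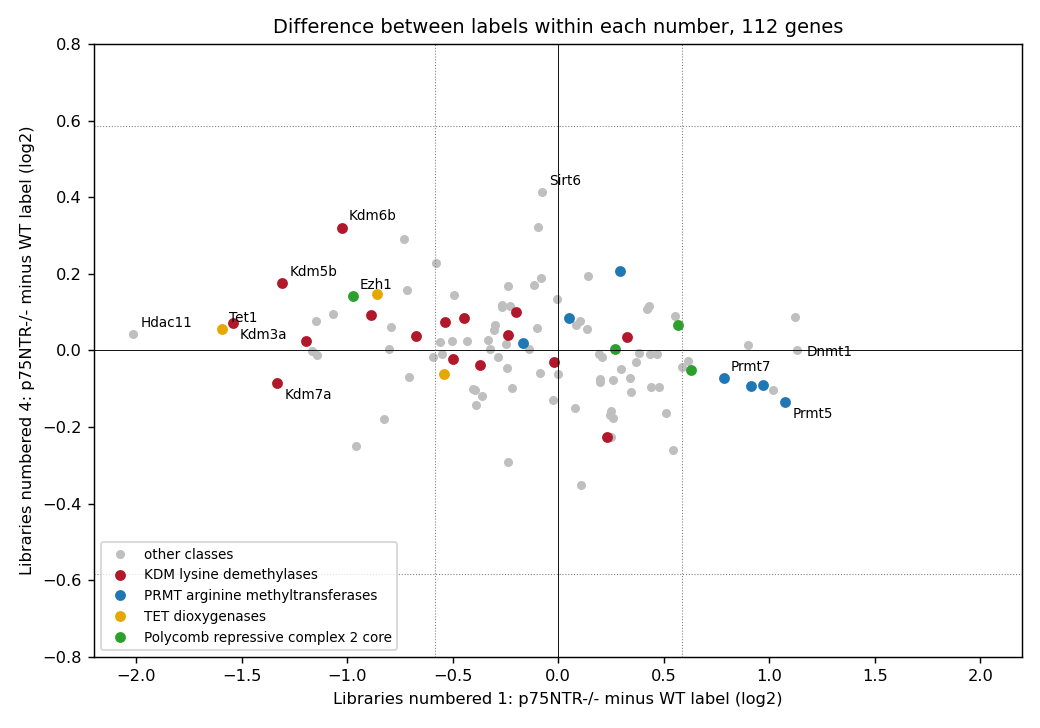
Log2 difference between the labels for the libraries numbered 1 (horizontal axis) and the libraries numbered 4 (vertical axis, drawn to a smaller range), where each point is 1 of 112 genes, coloured by class, and the dotted lines mark 1.5-fold. Points spread from -2.01 (Hdac11) to 1.13 (Dnmt1) horizontally and within 0.41 (Sirt6) vertically.

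Without overlap between the labels, 4 of the 117 genes were higher under p75NTR-/- (3.42%, against 7.52% of all genes): Chd5, Dnmt1, Hdac3 and Smarca4. Lower without overlap were 5 (4.27%, against 7.53%): Chd2, Hdac8, Setd5, Sirt4 and Smarca2. Both shares were below those of all genes. Setd5, a chromatin factor mutated in intellectual disability, was at 3169 and 2930.4 against 2603, 2785 and 2897 normalized counts and Sirt4, a mitochondrial sirtuin, at 109 and 102 against 82.1, 94.9 and 95.1, and their log2 differences were -0.14 ± 0.16 and -0.22 ± 0.17.

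By library, WT 1 was the highest of the 5 for 51 of the 117 genes (43.6%, against 28.1% of all genes). WT 4 was the highest for 6 (against 14.9%), p75NTR-/- 1 for 24 (against 21.3%), p75NTR-/- 2 for 19 (against 16.9%) and p75NTR-/- 4 for 17 (against 18.7%). The lowest library was WT 1 for 29 genes (24.8%, against 31.2%), WT 4 for 27 (against 14.4%), p75NTR-/- 1 for 29 (against 19.3%), p75NTR-/- 2 for 6 (against 16.6%) and p75NTR-/- 4 for 26 (against 17.7%). Genes highest in WT 1 included Kmt2a, Kmt2c, Kmt2d, Chd7, Kat6a, Setd1b, Arid1b and Sirt2. Genes lowest in WT 1 included Dnmt1, Prmt1, Prmt3, Prmt5, Prmt7, Kmt5a, Kat2a, Ezh2, Eed and Suz12. The median length of the leading transcript was 6592 bases for the 50 genes of sufficient level that were highest in WT 1 and 3043 bases for the 27 that were lowest, and it was 4555 bases over all 112. Over all genes the same medians were 3523, 2781 and 3069 bases.

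Across the 112 genes, Spearman's rho between length and the log2 difference of WT 1 from the mean of the other libraries was 0.51, a description over genes that share these libraries. For WT 4, p75NTR-/- 1, p75NTR-/- 2 and p75NTR-/- 4 it was -0.27, -0.28, -0.05 and -0.19. Over all genes it was 0.14 for WT 1. The 39 genes of 6000 bases or more had a median log2 difference of 0.51 in WT 1, beside 0.17 over the 1396 genes of that length in the table, and the 27 genes of 4000 to 6000 bases had 0.20, beside 0.01. The 33 genes of 2000 to 4000 bases had -0.17, beside -0.06, and the 13 shorter genes had 0.20, beside -0.08, so the medians did not rise steadily with length. The leading transcripts of Kmt2a and Kmt2c are 16461 and 14967 bases long, and that of Prmt1 is 2147 bases. The part of length or RNA quality in these values was not tested.

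**Figure D4:**
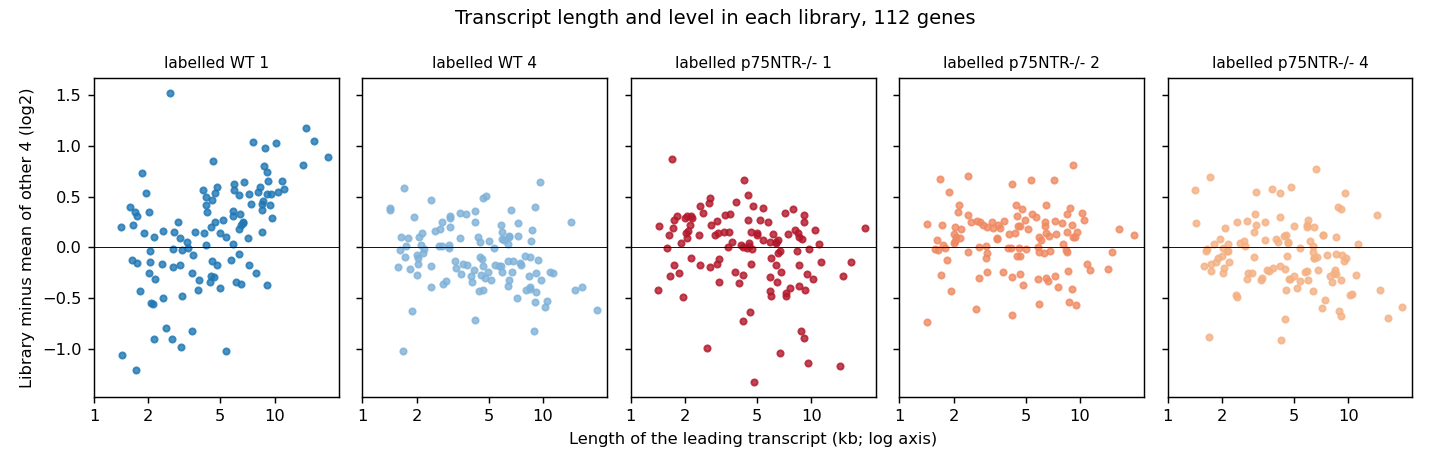
Length of the leading transcript in kilobases (horizontal log axis) against the log2 difference of each library from the mean of the other 4, with 1 panel per library and each point 1 of 112 genes. In the library labelled WT 1 Spearman's rho is 0.51, and in the others rho lies between -0.28 and -0.05.

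Single transcripts showed differences that the gene sums did not. Above 3 counts in every library of 1 label and in none of the other were 5 of the 282 transcripts (1.77%, against 0.670% of all transcripts), all of them present under the p75NTR-/- label: Smarcd2-203, Hdac5-203, Hdac7-207, Kmt5c-207 and Sirt3-210. They were named after their values were seen. Smarcd2-203 and Hdac5-203 also stand in the paper's supplementary list of transcripts higher in p75NTR-/- cells. The paper's lists also hold Kdm2b-218 as higher, and Chd3-201, Dnmt3b-209 and a transcript of Smarca2 as lower. Kdm2b-218 was above 3 counts in 2 libraries and the lower ones in 1 library each. These lists come from the study's own RNA-Seq and are no independent support. Hdac7-207 was at 0 and 0 normalized counts under the WT label and 10.9, 9.61 and 30.6 under the p75NTR-/- label. Kmt5c-207 and Sirt3-210 were at 0.98 and 0 against 22.8, 51.7 and 11.6 and 1.96 and 2.08 against 5.94, 4.81 and 9.51 normalized counts. The values of Sirt3-210 lay close to the cut of 3 counts under both labels. Above 3 counts in a single library were 6 (2.13%, against 1.13%). Of transcripts with a mean of at least 50, 8 had at most 3 counts in some library (2.84% of 282, against 1.76% of all).

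Smarcd2-203 (Ensembl transcript ENSMUST00000106843) has its own start and first exon within Smarcd2, which encodes BAF60B, a BAF subunit of which blood cells make much use (chromosome 11, 106263179 to 106267799, minus strand, GRCm38). It was at 0 and 0 normalized counts under the WT label and 28.7, 37.2 and 54.9 under the p75NTR-/- label. All 3 p75NTR-/- libraries were above the floor and both WT libraries were at 0 counts, and with the floor of 3 counts per library it was at least 13.3-fold higher under the p75NTR-/- label. The limma adjusted p was 0.0387, but the mean was under 50 and the transcript was not called. Over the other settings that adjusted p ran from 0.00303 (DESeq2) to 1 (edgeR). The other transcript listed, Smarcd2-201, was at 171 and 191 against 221, 154 and 105 normalized counts, so the share of Smarcd2-203 in the gene sum was 11.5%, 19.5% and 34.4% in p75NTR-/- 1, 2 and 4. The sequence that sets it apart is the start of its coding part, shown with the 75 bases in capitals that no other listed transcript has and the first 30 shared bases in lower case (chr11:106267489-106267593, minus strand, GRCm38, from the GENCODE transcript).
Smarcd2-203: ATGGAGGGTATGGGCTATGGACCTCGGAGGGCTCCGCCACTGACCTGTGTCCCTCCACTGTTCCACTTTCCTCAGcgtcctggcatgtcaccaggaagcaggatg

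Hdac5-203 (Ensembl transcript ENSMUST00000107151) was at 0 and 0 normalized counts under the WT label and 75.2, 19.2 and 25.4 under the p75NTR-/- label, at least 13.2-fold higher against the floor (limma adjusted p = 0.29, and between 0.0146 and 1 over the other settings). Without p75NTR-/- 1 it was at least 7.35-fold higher. It held at most 4.87% of the gene sum of Hdac5, and 1312 of its 4852 bases are shared with none of the gene's other annotated transcripts. Brpf1-202 (ENSMUST00000113119) of Brpf1, the scaffold of the Kat6a complex, was the transcript that DESeq2 called. It was at 15.7 and 2.08 normalized counts under the WT label and 117, 82.9 and 83.5 under the p75NTR-/- label, with a log2 difference of 3.71 ± 0.79 (SE, limma adjusted p = 0.922, and between 0.0385 and 1 over the other settings). The difference was 4.93 without WT 1 and 2.50 without WT 4. Only 3 of its bases are its own. Its sister transcripts Brpf1-201 and Brpf1-210 were at 76.5 and 47.9 against 35.6, 120.1 and 0 and 16.7 and 64.5 against 60.4, 122.5 and 129.9 normalized counts, and the gene sum was 553 and 515 against 766, 752 and 511.

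Other transcripts were at 0 in some libraries of 1 label and present in the rest. Kmt2a-202 (ENSMUST00000114689) was at 367 and 308 normalized counts under the WT label and 0, 234 and 0 under the p75NTR-/- label, and it has no base or junction of its own. Smarca2-201 (ENSMUST00000025862) was at 62.8 and 973 normalized counts under the WT label and 0, 229 and 314 under the p75NTR-/- label, while Smarca2-209 was at 1093 and 90.5 against 609.5, 446 and 699 normalized counts. Smarca2-201 exceeded Smarca2-209 in WT 4 alone. Tet2-204 (ENSMUST00000196398) was at 128 and 147 normalized counts under the WT label and 85.1, 0 and 0 under the p75NTR-/- label, and Smarcc1-207 (ENSMUST00000199896) at 0 and 48.9 normalized counts under the WT label and 87.1, 72.1 and 97.2 under the p75NTR-/- label. Reads that fit several transcripts are divided by estimation, and the division between such transcripts is uncertain. The leading transcript differed between libraries for 18 of the 83 genes with at least 2 transcripts (21.7%), beside 17.3% of all such genes.

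The junctions below tell 4 of these transcripts from every other annotated transcript of their genes, and are shown because their gene sums did not carry the differences of these isoforms. Each line gives 15 bases before the junction in lower case and 15 after it in capitals (GRCm38, GENCODE transcripts).
Hdac5-203, joining 102201233 to 102199685 of chromosome 11, minus strand: acctcttcaccacagGCCCCATCAGCCAGA
Hdac7-207, joining 97800695 to 97798343 of chromosome 15, minus strand: tcccgagagctgaagGATGTTCACCATGGC
Tet2-204, joining 133480133 to 133479365 of chromosome 3, minus strand: ttctcagaatgaaacGAAGAAAAAGCAATC
Tet2-204, joining 133479342 to 133476635 of chromosome 3, minus strand: gcaatcaccacccagTAGAAACTGTTGTTG
Smarcc1-207, joining 110235053 to 110236716 of chromosome 9, plus strand: caccaaacggcatgtGCCCTCAAAGGAGTC

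**Figure D5:**
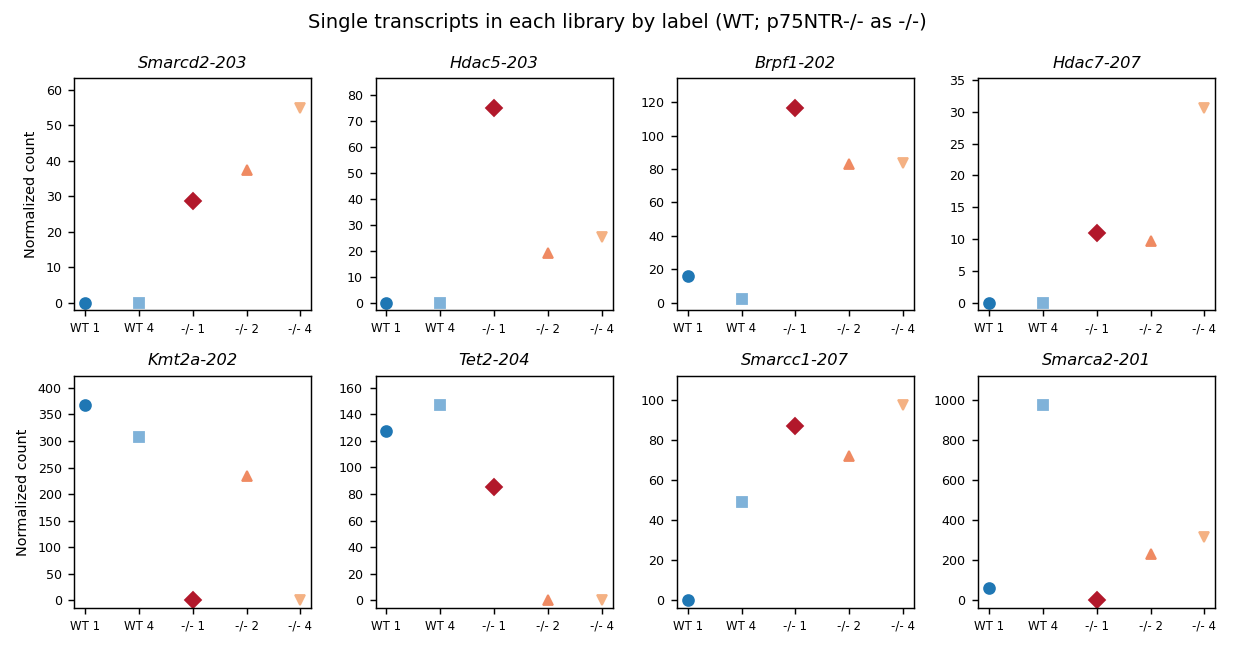
Normalized counts of 8 transcripts in each of the 5 libraries, with 1 panel per transcript, an axis from 0 and each point a single library by its label. Smarcd2-203, Hdac5-203 and Hdac7-207 are at 0 in both WT libraries and above 0 in all 3 p75NTR-/- libraries, and Kmt2a-202 and Tet2-204 are at 0 in 2 of the p75NTR-/- libraries.

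The promoters of the KDM and PRMT genes were searched because the medians of these classes had opposite signs between the libraries numbered 1. RefSeq promoters (GRCm38.p6, 250 bases before the start) were at hand for 95 of the 117 genes. The letters ACGTG, the core bound by HIF and by many bHLH factors, were searched on both strands. The E-box CACGTG contains them. ACGTG was in 20 of 128 promoters of the 95 genes (15.6%), beside 16.6% of all 32851 promoters, and CACGTG in 7 (5.47%, beside 6.02%). By gene, 20 of the 95 held ACGTG in at least 1 promoter (21.1%, beside 18.5% of all genes). It was in 5 of 11 KDM, 3 of 8 PRMT, 4 of 7 sirtuin and 3 of 10 acetyltransferase and BRPF genes. For SWI/SNF and ISWI it was 1 of 12, for HDAC 1 of 8 and for PRC2 1 of 4 genes. DNA methyltransferases and TET genes had 1 of 3 each. No match was in the 13 KMT and SETD, 6 CHD, 4 BAF-specific, 3 bromodomain reader and 3 other ARID genes. TGACGTCA, the full cyclic AMP element, was in 1 promoter (0.781%, beside 1.55%), and the E2F-type letters TTCCCGCC in 4 (3.12%, beside 1.86%). The windows of 30 bases around the letters, in capitals, are given for the KDM and PRMT genes described above, with the distance of the first letter from the start. Matches that overlap on both strands are shown once.
Kdm5b, chr1:134559937-134559966, plus strand, 229 bases before the start: ccaaaatatatgACGTGattgatggattgt
Kdm6a, chrX:18162404-18162433, plus strand, 159 bases before the start: tactccggacagACGTGcctatcagccaac
Kdm6a, chrX:18162537-18162566, plus strand, 26 bases before the start: tcaacaaaggtcACGTGaggcgaggggctg
Kdm7a, chr6:39206895-39206924, minus strand, 139 bases before the start: cggagaccgagaACGTGcgcgggacgcacg
Prmt1, chr7:44986583-44986612, minus strand, 180 bases before the start: cccaatcgtcacACGTGctgggtgagacag
Prmt3, chr7:49778328-49778357, plus strand, 13 bases before the start: gccccgccccctacgccCACGTgacccgga
Prmt5, chr14:54517521-54517550, minus strand, 68 bases before the start: gggagccacgccCACGTcactgtgagaatt
These matches are descriptions of letters and not of sites. The promoters of Kdm3a in the table do not hold the letters, which says nothing about the factors.

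Partner genes of the same complexes, from lists of 111 genes of which 110 were measured, also gave no call. At an unadjusted p under 0.05 none passed in either direction, 58 were higher and 52 lower, and the median was 0.03. Of the 10 COMPASS partners, the shared subunits of MLL-type enzymes, 9 were higher (median 0.15), such as Wdr5 at 393 and 586 against 651, 575 and 535 normalized counts. Of the progenitor form of BAF, Actl6a (BAF53A) was at 762 and 960.2 normalized counts under the WT label and 1487, 1443 and 951 under the p75NTR-/- label, and of the neuronal form Actl6b (BAF53B) was at 19.6 and 0 against 9.89, 4.81 and 0 and Dpf3 at 229 and 733 against 538, 438 and 679. The 21 Polycomb partners split into 11 higher and 10 lower, and the 16 NuRD and REST partners into 8 and 8. Rcor2, the REST corepressor partner of Kdm1a in progenitors, was at 1488 and 1235 normalized counts under the WT label and 347, 1227 and 1288 under the p75NTR-/- label, low in p75NTR-/- 1 alone. Uhrf1, which brings Dnmt1 to replicating DNA, was at 756 and 1303 normalized counts under the WT label and 1827, 2262 and 1115 under the p75NTR-/- label, with the same order of libraries at both ends as Dnmt1, while Hells, a remodeler needed for DNA methylation, was at 217 and 669 normalized counts under the WT label and 747, 728 and 601 under the p75NTR-/- label.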

How the data were processed

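Poly(A)-selected, stranded RNA-Seq was performed on 5 NSPC cultures (2 labelled WT, 3 labelled p75NTR-/-), with 500 ng RNA per library. Per the submitters' processing notes, the authors used FastQC, Salmon 0.10.2, DESeq2 1.22.0 and R 3.6.1 with GRCm38.p6. The deposited table lists transcripts. In its signal columns the authors divided estimated counts by DESeq2 size factors and added 0.5. After subtraction 100% of values were whole multiples of 1 step per library (tolerance 0.011 normalized counts), which gave back whole estimated counts. The deposited TPM columns and mean were treated as a score, and the authors' log2 fold changes, p-values and adjusted p-values were not used. Of 22530 lines, 303 were repeats, leaving 22227 transcripts, of which 99.9% matched GENCODE M21.

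Normalized counts were summed per symbol. log2(value + 1) was fitted over all features with limma 3.58.1 (R 4.3.3) and the Benjamini-Hochberg adjustment. A change was called at an adjusted p under 0.05, at least 1.5-fold and a mean of at least 50. Reads of a gene can be divided wrongly between transcripts, and a count of 0 allows up to 3 counts. Counting error alone is covered by these floors. Alternatives were edgeR 4.0.16 and DESeq2 1.42.0 on the recovered counts, other pseudocounts (0.5, 8), a filter at a mean of 10, TMM scaling, TPM (pseudocount 0.1), a variance trend, a replicate block and leaving out each library. The floor bounds without each p75NTR-/- library were added after seeing the data. An exact permutation test of 2 against 3 libraries cannot go below p = 0.1. Statistical code was tested on simulated data. The genes and lists were chosen with earlier results of these data known. Named were, per class, the gene of highest TPM and up to 4 genes of largest difference, sets of paralogues, genes with a transcript in the study's supplementary lists (which the study chose on these samples), and the 12 transcripts of mean 50 or more with the largest difference. Others were named after their values were seen. The values of 1 gene are not reported here.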

Additional observations from a re-analysis of the deposited data

How the results depend on the processing

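A count of 0 allows up to 3 counts per library. No gene sum of the 117 was called under any alternative tried. Of 984 alternative values for named genes and transcripts, 931 kept their direction and side of the threshold, 52 changed sign and 1, of Brpf1-202 in DESeq2, passed the threshold. DESeq2 called 1 of the 282 transcripts (28 of all), and dropping the minimum of the mean called 1 (Smarcd2-203, 31 of all). The count of gene sums with an unadjusted p under 0.05 was 0 with TPM (beside 2.37% of all genes), 2 with a variance trend (beside 2.03%) and 3 with DESeq2 (beside 3%), and leaving out each library gave 0 to 20 (beside 1.02% to 14%). The median log2 difference ranged from -0.10 to 0.10 when each library was left out. Same-numbered libraries share only a number, with 2 pairs. With the replicate block the median was -0.06, 0 gene sums were called and the log2 differences were 0.57 for Dnmt1, -0.50 for Hdac8, -0.077 for Brd3, -0.072 for Brd7 and -0.036 for Dnmt3a, the last 3 with a changed sign. With TPM the sign changed for Brd2 (-0.030), Brd3 (-0.047), Chd4 (0.0090), Dnmt3a (-0.052) and Hdac5 (-0.065), and with TMM for Brd7 (-0.0014). The transcript Sirt1 ENSMUST00000105442 gave 0.31 in edgeR and 0.30 in DESeq2. Leaving out each library in turn gave log2 differences that changed sign for Arid1a -0.14 to 0.29, Arid1b -0.55 to 0.11, Arid2 -0.37 to 0.0013, Arid4b -0.33 to 0.098, Arid5a -0.44 to 0.18, Brd2 -0.024 to 0.13, Brd3 -0.077 to 0.19, Brd7 -0.12 to 0.13, Brd9 -0.067 to 0.38, Brpf1 ENSMUST00000113117 -3.35 to 0.11 and Chd3 -0.21 to 0.13. They also did for Chd4 -0.21 to 0.19, Chd7 -0.94 to 0.35, Dnmt3a -0.22 to 0.26, Dnmt3b -0.069 to 0.13, Hdac5 -0.24 to 0.36, Hdac7 -0.18 to 0.68, Hdac9 -0.10 to 0.99, Kat2a -0.072 to 0.97, Kat7 -0.029 to 0.25, Kmt2a -1.02 to 0.13 and Kmt2c -1.14 to 0.14. The rest were Kmt5a -0.11 to 1.03, Prmt7 -0.14 to 0.79, Sirt1 ENSMUST00000105442 -2.61 to 0.97, Sirt2 -0.72 to 0.035, Smarca1 -0.53 to 0.16, Smarca2 ENSMUST00000025862 -4.55 to 0.11, Smarcd2 -0.050 to 0.27, Suz12 -0.021 to 0.34, Tet2 -0.63 to 0.10 and Tet3 -0.54 to 0.11. The cause was not tested.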
